A study of Homo sapiens with 12 samples.

Results

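The ZNF genes are the largest named series of human zinc finger genes, and they were read here by 358 bead array probes for 295 genes. The probes were chosen by rule. Their annotated symbol is ZNF followed by digits alone, and their signal was detected (detection p under 0.01) on all 3 arrays of at least 1 of the dexamethasone groups. Of the 47312 probes on the array 642 carry such a symbol, for 443 genes, and 18110 probes of any gene met the same detection rule. Because detection on the 6 dexamethasone arrays chose the probes, the values of those arrays, and any comparison that uses them, are given as a description, and tests of single probes rest on the lines compared with 15d-PGJ2, on arrays the choice did not use. All 358 probes passed the filter on dim signals, as the rule implies.

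Total RNA came from HEK293 cells, an established human embryonic kidney line, in the form of a pair of isogenic lines. In wtGR cells the glucocorticoid receptor that was stably introduced is wild type. In GR3KR cells it is a SUMOylation-defective form, to which the small protein SUMO cannot be attached. Each line was kept for 36 h in steroid-depleted medium and then treated for 6 h with 100 nM dexamethasone, a synthetic agonist of the receptor, either alone or with 5 µM 15d-PGJ2, an electrophilic prostaglandin. Each of the 4 groups holds 3 arrays, every group received dexamethasone, and each receptor form was studied in 1 line, so the receptor and other differences between the lines cannot be told apart. In such bulk samples fewer cells expressing a gene and less RNA per cell cannot be told apart either.

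C2H2 zinc finger proteins bind DNA through tandem fingers, each of which contacts a few bases. Many of them carry a KRAB domain, which recruits the corepressor TRIM28 and through it the histone methyltransferase SETDB1, and they are known for silencing transposable elements. Their genes multiplied by tandem duplication and lie in clusters, most of all on human chromosome 19. Among the probes described here 161, for 137 genes, belong to chromosome 19.

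A total of 9 probes were detected on all 3 wtGR arrays and on no GR3KR array with dexamethasone. They read ZNF83, ZNF700, ZNF433, ZNF682, ZNF93, ZNF69, ZNF813 and ZNF551, all on chromosome 19, and ZNF485 on chromosome 10. The 250 bases upstream of the RefSeq start of 6 of these genes are printed here because each pair carries one of the 3 longest exact runs shared between any of the 9 windows (RefSeq, GRCh38.p14; 5′ to 3′ on the strand of the gene). Capitals mark the shared run.

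The first pair is of ZNF69 (chr19:11887532-11887781, plus strand) and ZNF700 (chr19:11924857-11925106, plus strand), which share 53 bases, found in 2 of 27305 such windows on either strand (0.00732%).
ZNF69: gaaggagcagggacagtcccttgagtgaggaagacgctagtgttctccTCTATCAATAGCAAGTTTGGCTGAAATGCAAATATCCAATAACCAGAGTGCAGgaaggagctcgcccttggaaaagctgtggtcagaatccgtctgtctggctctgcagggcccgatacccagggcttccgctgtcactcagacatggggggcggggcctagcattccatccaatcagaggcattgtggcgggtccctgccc
ZNF700: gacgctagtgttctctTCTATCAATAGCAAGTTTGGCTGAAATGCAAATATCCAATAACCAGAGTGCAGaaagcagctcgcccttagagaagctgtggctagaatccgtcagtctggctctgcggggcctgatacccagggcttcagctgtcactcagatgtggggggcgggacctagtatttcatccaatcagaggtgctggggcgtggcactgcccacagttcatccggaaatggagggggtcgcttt

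The second pair is of ZNF83 (chr19:52690497-52690746, minus strand) and ZNF813 (chr19:53467483-53467732, plus strand), which share 22 bases close to the start, found in 5 of 27305 windows (0.0183%).
ZNF83: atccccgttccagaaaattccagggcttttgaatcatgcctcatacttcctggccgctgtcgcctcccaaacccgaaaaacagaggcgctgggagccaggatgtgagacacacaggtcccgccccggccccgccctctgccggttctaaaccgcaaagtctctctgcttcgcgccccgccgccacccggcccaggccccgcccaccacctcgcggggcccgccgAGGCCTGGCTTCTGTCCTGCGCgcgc
ZNF813: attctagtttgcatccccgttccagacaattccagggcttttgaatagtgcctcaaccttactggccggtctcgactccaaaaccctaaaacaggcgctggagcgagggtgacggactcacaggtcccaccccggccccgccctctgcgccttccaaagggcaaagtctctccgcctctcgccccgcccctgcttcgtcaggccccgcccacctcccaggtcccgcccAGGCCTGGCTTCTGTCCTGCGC

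The last pair is of ZNF433 (chr19:12035680-12035929, minus strand) and ZNF682 (chr19:20039506-20039755, minus strand), which share 15 bases, found in 13 of 27305 windows (0.0476%).
ZNF433: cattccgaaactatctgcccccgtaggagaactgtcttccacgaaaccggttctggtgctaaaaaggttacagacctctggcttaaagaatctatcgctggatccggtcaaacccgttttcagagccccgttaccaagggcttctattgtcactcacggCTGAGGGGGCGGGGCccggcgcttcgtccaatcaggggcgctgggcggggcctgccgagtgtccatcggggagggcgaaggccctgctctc
ZNF682: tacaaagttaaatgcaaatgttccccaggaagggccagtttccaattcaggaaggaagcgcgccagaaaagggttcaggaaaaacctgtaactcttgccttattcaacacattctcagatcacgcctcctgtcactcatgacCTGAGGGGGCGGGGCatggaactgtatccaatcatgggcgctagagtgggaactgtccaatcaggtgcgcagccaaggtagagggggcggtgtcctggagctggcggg

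Among the 36 pairs of these 9 windows the median longest shared run was 9 bases, and 4 pairs reached 14. The dinucleotide CG, the target of DNA methylation in mammals, was counted in the same windows. It occurred between 7 and 23 times in the 9 genes (median 13) and between 1 and 51 times in the 248 other genes with an entry (median 18). For the 116 others on chromosome 19 the median was 17. Over all 27305 windows the median was 11, and 93.6% held at least 1 CG.

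The GR3KR arrays with 15d-PGJ2 differed from the rest in quality. They detected 15223, 14207 and 17032 of all probes, against 17959 to 19950 on the other 9 arrays, so the counts and most of the named differences that use them are also given without arrays 1 and 2, which leaves array 3 alone and assumes that it varies like the other groups. Among the markers of HEK293 cells 4 of 7 (NEFL, INA, VIM and KRT8) were detected on all 12 arrays and PAX2 did not pass the filter. INA read a mean log2 intensity of 10.11 in wtGR and 8.37 in GR3KR cells with dexamethasone, without overlap. For NEFL, VIM and KRT8 the lines overlapped with dexamethasone. NEFM was detected on 2 wtGR arrays with dexamethasone and on 1 GR3KR array with 15d-PGJ2. KRT18 was detected on 1 wtGR array with dexamethasone and 2 with 15d-PGJ2, and on 2 and 0 GR3KR arrays. Its bead intensity varied within groups, at 1150, 66.1 and 65.7 in wtGR cells with dexamethasone. Of 4 leukocyte markers PTPRC and CD3E did not pass the filter while CD14 and HLA-DRA did, and of 5 fibroblast markers only COL1A1 did.

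The share of ZNF probes detected followed that of all probes under the same rule. On the wtGR arrays 354, 355 and 347 of 358 were detected with dexamethasone and 353, 348 and 351 with 15d-PGJ2 added. On the GR3KR arrays the numbers were 340, 340 and 343 with dexamethasone and 285, 288 and 321 with 15d-PGJ2 added. The last 3 correspond to 79.6%, 80.4% and 89.7% of the ZNF probes, beside 77.3%, 74.6% and 89.1% of all probes under the rule. A total of 258 ZNF probes were detected on all 12 arrays.

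**Figure D1:**
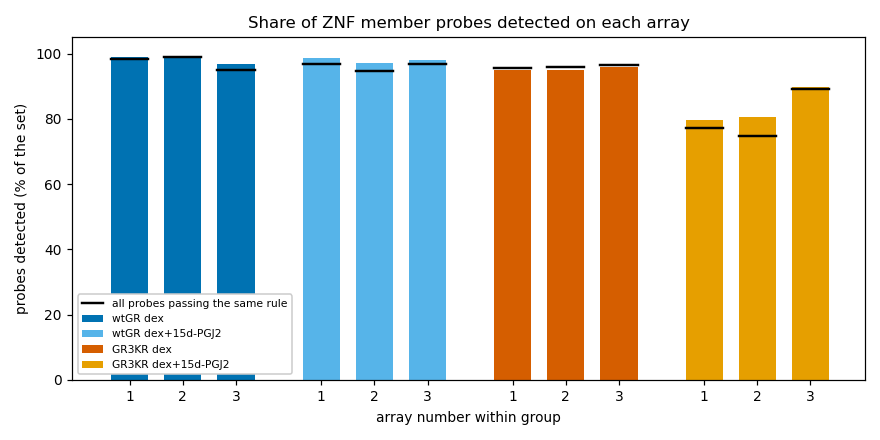
Share of the 358 ZNF probes detected on each of the 12 arrays (bars, percent), with the share of all 18110 probes that met the same detection rule (black lines). The 3 GR3KR arrays with 15d-PGJ2 lie between 79.6% and 89.7%, below the other 9.

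In the dexamethasone groups that chose them, 315 probes were detected on all 6 arrays. Another 18 were detected on all 3 wtGR arrays and on 1 or 2 GR3KR arrays, 16 on all 3 GR3KR arrays and on 1 or 2 wtGR arrays, 9 in wtGR only and 0 in GR3KR only. The 9 are 2.51% of the ZNF probes, close to the 2.01% (364 of 18110) among all probes under the rule, and 0.414% of all probes were in GR3KR only. A share so near the background is no result about ZNF genes. The count also rests on single arrays: leaving out wtGR array 1 or 3 gave 14 and 15 probes in wtGR only and 1 in GR3KR only. Of the wtGR dexamethasone arrays, array 3 detected the fewest ZNF probes (347, beside 354 and 355). It read 4.70 for ZNF24 and 5.23 for ZNF205 (ILMN_2404033), 2 of the 16 probes, which the other wtGR arrays detected. The part of array quality in the 16 was not tested. Among 61 probes of the neighbouring families ZFP, ZSCAN, ZKSCAN and ZBTB, named after the same kind of finger or a companion domain, 0 were detected in a single line.

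On the 6 arrays with 15d-PGJ2, 8 of the 9 probes were again detected on all 3 wtGR arrays and on no GR3KR array. The exception was ZNF485, detected on all 3 GR3KR arrays. Of the 364 probes of any gene that were in wtGR only with dexamethasone, 36.5% repeated the pattern. With array 3 as the only GR3KR array the numbers were 8 of 9 and 47.8%. How far this is a repeat depends on brightness, because the lowest signal detected on the GR3KR arrays with 15d-PGJ2 was higher (log2 intensity 6.15, 6.44 and 5.69) than on the wtGR arrays (5.24, 5.34 and 5.34). ZNF83, ZNF700, ZNF433 and ZNF682 lay above 6.44 on all 3 wtGR arrays, and these 4 repeated the pattern, as did 83.3% of the 42 probes of any gene that were so bright, a split chosen after the values were seen. ZNF93, ZNF69, ZNF813 and ZNF551 did not lie above it, so the same signal in GR3KR cells could also have gone undetected there. Of the 322 such probes of any gene 30.4% repeated the pattern. Over all ZNF probes 23 (6.42%) were in wtGR only with 15d-PGJ2, beside 6.41% of all probes, and 1 was in GR3KR only, beside 0.381%. With array 3 alone the numbers were 31, beside 7.76%, and 1, beside 0.69%.

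ZNF83, which encodes a C2H2 zinc finger protein, read bead intensities of 352, 286 and 193 in wtGR cells with dexamethasone and 203, 173 and 180 with 15d-PGJ2 added. In GR3KR cells it read 47.3, 50 and 57.1 with dexamethasone and 54.9, 47.2 and 49.1 with 15d-PGJ2 added, none of them above detection. The log2 intensity (normalized, as all log2 values here) went from 7.32 ± 0.27 in wtGR to 4.44 ± 0.09 in GR3KR cells with dexamethasone and from 7.03 ± 0.12 to 4.49 ± 0.07 with 15d-PGJ2 (SD, n = 3 arrays in each group). The lines did not overlap in either treatment. With dexamethasone this was close to fixed in advance, since detection on those arrays set the 9 probes apart. With 15d-PGJ2 the difference, GR3KR minus wtGR throughout, was -2.54 (SE 0.17, limma adjusted p = 2.1e-05 over all 20909 probes tested). Since the GR3KR signal has only a bound, ZNF83 was at least 3.8-fold lower in GR3KR cells with dexamethasone and at least 1.91-fold lower with 15d-PGJ2, counted against the lowest signal that each GR3KR array detected.

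ZNF700, ZNF433 and ZNF682 showed the same pattern. For ZNF700 (probe ILMN_1807234) the log2 intensity was 7.53, 6.68 and 7.12 in wtGR cells with dexamethasone, 6.72, 6.65 and 7.21 on the wtGR arrays with 15d-PGJ2, and between 4.41 and 4.59 on all 6 GR3KR arrays. With 15d-PGJ2 every wtGR array lay above every GR3KR array, and the difference was -2.37 (SE 0.23, adjusted p = 0.000158; at least 1.7-fold). ZNF433 read 6.81, 6.97 and 7.48, then 7.09, 7.28 and 7.28 in wtGR cells, and 4.56 to 4.95 in GR3KR cells. Its difference with 15d-PGJ2 was -2.43 (SE 0.20, adjusted p = 6.17e-05; at least 2.17-fold). ZNF682 (probe ILMN_2242998) read 6.63 to 6.86 on the 6 wtGR arrays and 4.47 to 4.92 on the 6 GR3KR arrays, with a difference of -2.11 (SE 0.16, adjusted p = 4.1e-05; at least 1.52-fold). With dexamethasone alone the corresponding differences were -2.64, -2.47 and -2.06, and the bounds at least 3.29-fold, 3.24-fold and 2.61-fold.

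ZNF69 and ZNF813 were dimmer. ZNF69 (probe ILMN_3251506) read 6.18, 6.13 and 6.79 in wtGR cells with dexamethasone, 6.15, 5.59 and 6.15 with 15d-PGJ2, and 4.87 to 5.14 on the 6 GR3KR arrays. The groups did not overlap with 15d-PGJ2, on the arrays that played no part in choosing the probe. The adjusted p with 15d-PGJ2 was 0.00985, and 0.101 without GR3KR arrays 1 and 2 (0.00488 to 0.101 over 20 alternatives). ZNF813 read 5.59, 5.68 and 5.46 in wtGR and 5.08, 4.85 and 4.60 in GR3KR cells with 15d-PGJ2 (adjusted p = 0.00846; up to 0.0377 over its alternatives). With 15d-PGJ2 the wtGR means of both, 5.96 and 5.57, lay below the mean of the lowest signals detected on the GR3KR arrays, so no fold can be given for either.

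ZNF93, ZNF551 and ZNF485 did not pass the test with 15d-PGJ2. ZNF93, whose protein is known to bind and repress LINE-1 elements, read 5.57, 6.07 and 6.54 in wtGR cells with dexamethasone and 4.55 to 4.59 in GR3KR cells. With 15d-PGJ2 it read 5.38, 5.91 and 5.62 against 4.93, 5.40 and 4.69, where the groups overlapped (difference -0.63, adjusted p = 0.0681; -0.95 and 0.0955 without GR3KR arrays 1 and 2). ZNF551 had a difference of -0.59 (adjusted p = 0.0536), and of -0.04 on GR3KR array 3 alone. ZNF485 read 5.31, 5.39 and 5.11 in GR3KR cells with dexamethasone and 6.81, 7.03 and 5.77 with 15d-PGJ2 added. Arrays 1 and 2 were the highest of its 12, and the difference between the lines was 0.61 (adjusted p = 0.131).

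**Figure D2:**
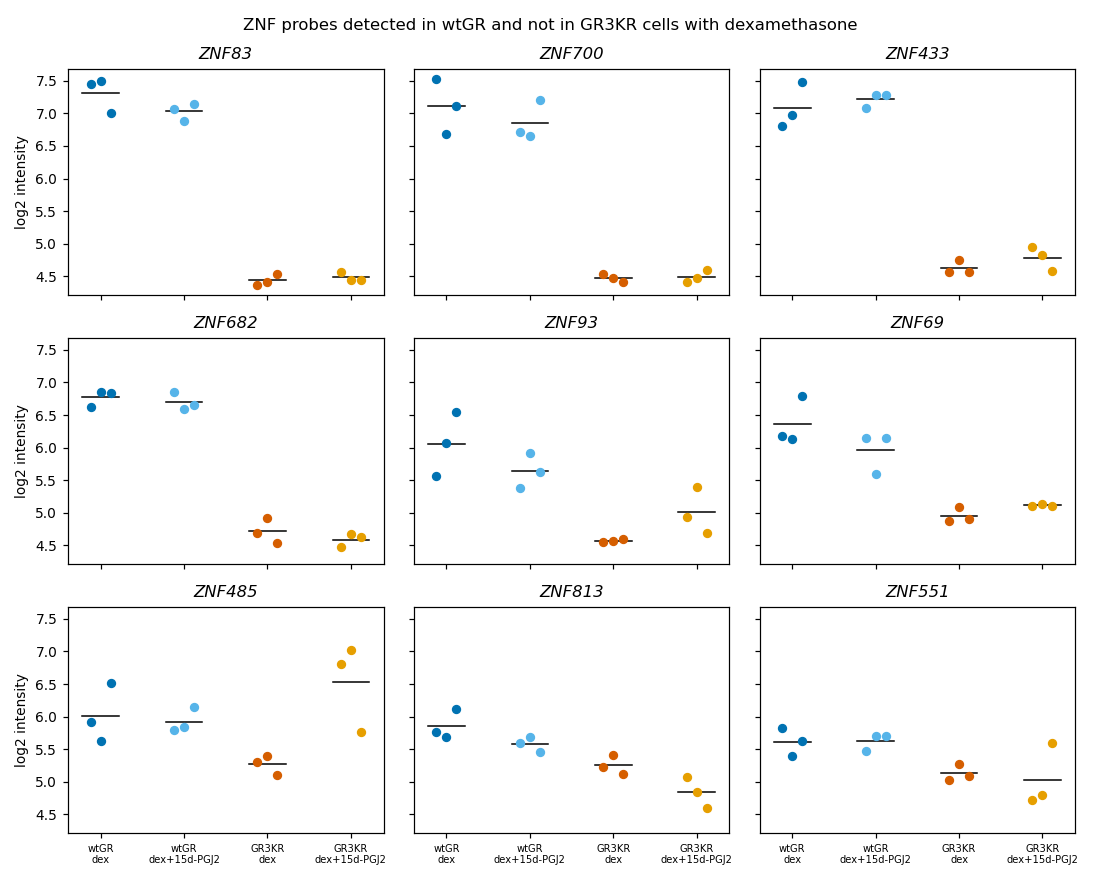
Normalized log2 intensity on each of 12 arrays (points; array order within a group is 1 to 3 from left to right) and group mean (lines) for the 9 probes detected in wtGR and not in GR3KR cells with dexamethasone. ZNF83, ZNF700, ZNF433 and ZNF682 lie above 6.5 on every wtGR array and below 5 on every GR3KR array, while ZNF485 reaches 7.03 on a GR3KR array with 15d-PGJ2.

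The calls for these probes of ZNF83, ZNF700, ZNF433 and ZNF682 held under all 20 or 21 alternative settings run for each. Their highest adjusted p was 0.00125, 0.00758, 0.00202 and 0.0021. The lines thus differed at these 4 probes. The dexamethasone arrays chose the probes detected in wtGR only. Among those, the 4 were set apart by a bright signal on the wtGR arrays with the prostaglandin. That split was made after the values were seen, and the same arrays enter the difference. The split therefore favoured a large difference at the 4. All 4 met the rule through the wtGR dexamethasone arrays alone, so they had to be detected in that group.

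Other ZNF probes were lower in GR3KR cells and still detected on most or some arrays there. ZNF22, a chromosome 10 gene also called KROX26, was lower at both of its probes. Probe ILMN_2117904 read 8.86, 8.65 and 8.95 in wtGR and 5.53, 5.71 and 5.54 in GR3KR cells with dexamethasone, and 8.82, 8.66 and 8.69 against 7.54, 7.21 and 6.20 with 15d-PGJ2. Probe ILMN_1798533 read 9.38, 9.31 and 8.99 against 6.45, 6.18 and 6.47 with 15d-PGJ2. Both probes separated the lines in both treatments. With 15d-PGJ2 their differences were -1.74 (adjusted p = 0.00147) and -2.86 (SE 0.20, adjusted p = 2.89e-05), or 3.33-fold and 7.26-fold lower, and both were called under all 21 alternatives. ZNF525 and ZNF502, chosen after their values were seen, had differences of -1.70 (adjusted p = 3e-04) and -1.39 (adjusted p = 0.0112). ZNF525 was detected on no GR3KR array with 15d-PGJ2, which makes it at least 1.37-fold lower. It met the rule through the wtGR dexamethasone arrays alone, so it had to be detected in that group. ZNF525 was called under all 21 alternatives and ZNF502 under 20, with an adjusted p of up to 0.0647.

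Some ZNF probes were higher in GR3KR cells in both treatments. ZNF671, a gene known to be silenced by promoter methylation in several tumours, read 5.17, 5.67 and 6.00 in wtGR and 6.61, 6.90 and 6.86 in GR3KR cells with dexamethasone. With 15d-PGJ2 it read 5.68, 5.90 and 5.91 against 7.72, 7.76 and 7.25, a difference of 1.75 (SE 0.23, adjusted p = 0.000617). ZNF521, a regulator of progenitor cell differentiation, was detected on 1 wtGR array and all 3 GR3KR arrays with dexamethasone. With 15d-PGJ2 it read 5.35, 4.89 and 5.45 against 7.89, 7.46 and 6.47 (difference 2.04, SE 0.32, adjusted p = 0.00115). The X-linked ZNF81, chosen after its values were seen, had the same detection pattern at probe ILMN_1673744 and a difference of 1.64 (adjusted p = 0.000385). The probes of ZNF671, ZNF521 and ZNF81 met the rule through the GR3KR dexamethasone arrays alone, so they had to be detected in that group. These 3 were called under all 21 alternatives, where the differences ran from 0.89 to 1.94 for ZNF671, 0.90 to 2.45 for ZNF521 and 0.66 to 1.84 for ZNF81. The second probe of ZNF81, ILMN_1837220, did not show it, with a difference of -0.05 with dexamethasone and -0.51 with 15d-PGJ2.

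With dexamethasone 27 ZNF probes passed the limma threshold (adjusted p under 0.05), 5 higher and 22 lower, where 4.62% of all 20909 probes did (1.54% higher and 3.08% lower). These arrays chose the probes, so the count is a description. The median difference was -0.16 over the ZNF probes and 0.0044 over all probes. The groups did not overlap for 30 probes higher and 103 lower in GR3KR cells, where 13.5% and 17.8% of all probes behaved so.

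On the arrays with 15d-PGJ2, 176 ZNF probes were called, 116 higher and 60 lower in GR3KR cells. That is 49.2% of them, near the 50.7% of all probes (29.6% higher and 21.1% lower), and 12278 of all 20909 probes had an unadjusted p under 0.05. The groups did not overlap for 124 higher and 70 lower ZNF probes, beside 32.2% and 22.8% of all probes. Array 3 alone lay above the wtGR arrays for 152 and below them for 132, beside 44.7% and 35.3%. Which direction prevailed depended on the scaling, since 65.9% of the called probes were higher with quantile normalization, 53.9% with cyclic loess and 40.1% with median scaling. The median difference over all probes was 0.12, -0.10 and -0.12 under these, and over the ZNF probes 0.33, 0.03 and -0.03. Without GR3KR arrays 1 and 2 the medians were 0.09 and 0.08. Without GR3KR arrays 1 and 2 the number called was 48, of which 25 were lower (6.98%) and 23 higher (6.42%), beside 5.1% and 7.72% of all probes. A total of 20 lower and 19 higher probes were called both with and without those arrays.

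Of the 60 ZNF probes called lower with all arrays, 40 (66.7%) were detected on neither GR3KR array 1 nor 2, beside 60.1% of the 4412 probes of any gene called lower. Of these 40, 23 were detected on array 3 and 17 on no GR3KR array, which is 38.3% and 28.3% of the 60, beside 27.5% and 32.6%. ZNF274, whose protein binds within other zinc finger genes and recruits SETDB1, read at probe ILMN_2352574 9.53, 9.37 and 8.85 in wtGR cells and 4.59, 4.78 and 7.47 in GR3KR cells with 15d-PGJ2. ZNF473, which takes part in histone pre-mRNA processing, read at probe ILMN_1782730 8.53, 8.61 and 8.39 against 4.44, 4.47 and 7.63. ZNF217, a transcription factor amplified in breast cancer, read 8.80, 8.75 and 8.78 against 5.50, 4.66 and 8.08. At these 3 probes GR3KR array 3 lay below the wtGR arrays and well above the other GR3KR arrays. Their differences were -3.63, -3.00 and -2.70 with all arrays (adjusted p = 0.00228, 0.00533 and 0.00725) and -1.77, -0.88 and -0.70 without arrays 1 and 2 (adjusted p = 0.0558, 0.0464 and 0.0604). The second probes of ZNF274 and ZNF473, detected on all of these arrays, differed by less. ILMN_1688629 of ZNF274 read 10.79, 10.90 and 10.49 against 9.28, 9.93 and 9.84 (difference -1.04, adjusted p = 0.00342; -0.89 and 0.0411 without the pair). ILMN_2346649 of ZNF473 had a difference of -0.39 (adjusted p = 0.0505; -0.63 and 0.0354 without the pair). ZNF768 and the X-linked ZNF182 behaved likewise, at -3.56 and -2.84 with all arrays and -1.41 and -0.92 without the pair (adjusted p = 0.0955 and 0.165). The part of array quality in these differences was not tested.

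One probe each of ZNF598 and ZNF627 was low on all 3 of the GR3KR arrays with 15d-PGJ2. ZNF598, a ubiquitin ligase of collided ribosomes, read 5.29, 4.90 and 6.09 there at probe ILMN_2075820 against 8.74, 8.94 and 9.86 in wtGR cells (difference -3.75, SE 0.74, adjusted p = 0.00318). It also read 6.31 on wtGR dexamethasone array 3, where the other wtGR dexamethasone arrays read 8.84 and 9.68, and its second probe, ILMN_2075818, differed by 0.20 (adjusted p = 0.312). ZNF627 at probe ILMN_1708787 read 4.58, 4.51 and 4.66, all below detection, against 7.93, 7.78 and 7.14 (at least 2.87-fold lower, adjusted p = 0.00138), and 5.60 on wtGR dexamethasone array 3. Its second probe, ILMN_2197519, read 9.28, 8.97 and 8.50 against 9.02, 9.01 and 8.99, a difference of -0.09 (adjusted p = 0.721; -0.51 and 0.098 without arrays 1 and 2). Without arrays 1 and 2 the adjusted p of the low probes was 0.096 for ZNF598 and 0.0412 for ZNF627, the highest of their 20 alternatives.

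The probes with the largest differences in the other direction were of ZNF618, ZNF532, ZNF540, ZNF521, ZNF649, ZNF12, ZNF671 and ZNF784, from 2.18 to 1.74 on the log2 scale. For ZNF649, a known repressor of growth factor signalling, the 3 wtGR arrays with 15d-PGJ2 lay below detection (4.88, 5.12 and 4.79) and the GR3KR arrays read 7.41, 7.27 and 6.20, at least 3.15-fold higher (adjusted p = 0.000832). ZNF532 read 5.48, 5.16 and 5.60 against 7.97, 7.92 and 6.88 (adjusted p = 0.000941), and ZNF12, a KRAB repressor, 5.35, 5.26 and 5.69 against 7.97, 7.65 and 6.64 (adjusted p = 0.00108). In each of these GR3KR array 3 was the lowest of its group and still above all wtGR arrays. On that array alone the differences were 1.27, 1.47 and 1.20 (adjusted p = 0.0153, 0.0325 and 0.0201). ZNF618 and ZNF540 passed with all arrays (adjusted p = 0.00297 and 0.00167) and did not on array 3 alone (0.102 and 0.0616).

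**Figure D3:**
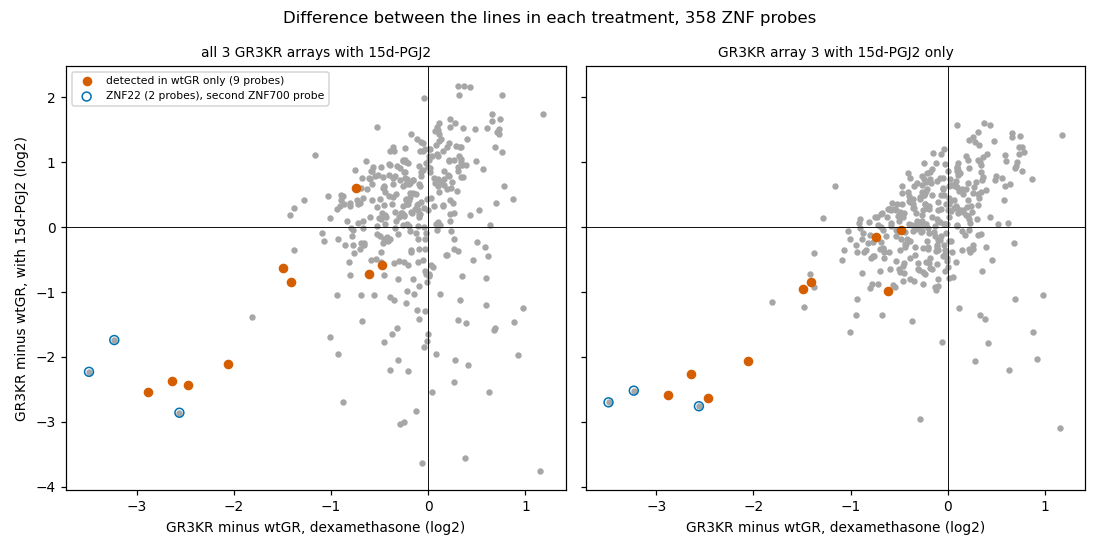
Log2 difference between the lines (GR3KR minus wtGR) for 358 ZNF probes, with dexamethasone on the x axis and with 15d-PGJ2 on the y axis, over all GR3KR arrays (left) and with array 3 as the GR3KR group (right). The lowest 4 of the 9 probes in wtGR only (ZNF83, ZNF700, ZNF433 and ZNF682) and the 3 circled probes lie below -1.5 on both axes in both panels.

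The direction of large dexamethasone differences was compared with that on the arrays with 15d-PGJ2. Of 21 ZNF probes that were lower in GR3KR cells by at least 1 on the log2 scale with dexamethasone, 15 (71.4%) were lower with 15d-PGJ2, beside 76.7% of 597 probes of all genes. Without GR3KR arrays 1 and 2 the number was 19 (90.5%), beside 89.1%. Only 2 ZNF probes were higher by at least 1, ZNF671 at 1.18 and ZNF598 at 1.15, and of them ZNF671 was also higher with 15d-PGJ2.

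The response to 15d-PGJ2 was then compared within each line. Since the dexamethasone arrays chose the probes, the counts stand beside those of all probes and nothing is read from them. In wtGR cells 0 ZNF probes were called, beside 0.0765% of all probes, and 21 had an unadjusted p under 0.05. Settings with cyclic loess, the lumi values, no filter or 1 probe per gene called 1 each and array weights 97. The medians were -0.05 for ZNF probes and -0.03 for all, and the groups did not overlap for 28 higher and 38 lower ZNF probes, beside 6.66% and 11.9% of all probes. In GR3KR cells 185 were called, 145 higher and 40 lower, beside 44.8% of all probes (27.2% and 17.6%), with medians of 0.52 and 0.18 (0.27 and 0.11 without GR3KR 15d-PGJ2 arrays 1 and 2). The groups did not overlap for 170 higher and 42 lower, beside 33.7% and 20.6%, and array 3 alone lay above the dexamethasone arrays for 210 and below them for 73, beside 46.4% and 31.0%. Median scaling turned the split of the calls to 38 higher and 51 lower, and without GR3KR 15d-PGJ2 arrays 1 and 2 limma called 0, beside 0.0478% of all probes. The test of the difference between the 2 responses called 99 ZNF probes, 84 higher and 15 lower in GR3KR cells, beside 23.7% of all probes (14.6% and 9.03%), and 0 without that pair of arrays, beside 0.00478%.

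The largest responses in GR3KR cells were of ZNF598 (log2 change -4.01), ZNF768 (-3.50) and ZNF274 (-2.90) among those lower with 15d-PGJ2. Among those higher were ZNF695 (1.68), ZNF618 (1.53) and ZNF775 (1.53). ZNF695 read 7.17, 7.45 and 7.34 without and 9.14, 9.33 and 8.55 with 15d-PGJ2, and its change was 1.22 on array 3 alone. ZNF567, ZNF839 and ZNF106 changed by -2.75, -2.51 and -2.45, and ZNF12, ZNF532 and ZNF483 by 1.48, 1.47 and 1.46. Each value is of a single probe. The second probe changed by 0.22 for ZNF598, -0.39 for ZNF274, 0.43 for ZNF839, -0.19 for ZNF106 and 1.02 for ZNF618. The probes of ZNF483 ran from 0.06 to 1.46. Without arrays 1 and 2 the changes of the 6 lower probes ran from -0.36 for ZNF839 to -3.34 for ZNF598, and those of the 6 higher ones from 0.69 for ZNF12 to 1.22 for ZNF695. These changes are a description, since the GR3KR dexamethasone arrays also chose the probes. ZNF567 met the rule through those arrays alone, so it had to be high in the group from which the change is counted.

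Genes with more than 1 probe gave a second reading of the same gene. There were 58 of them with 2 or more ZNF probes under the rule, 5 of these with at least 3. With dexamethasone the probes had the same sign of difference in 47 of 58, and the median gap between the lowest and the highest probe of a gene was 0.26. With 15d-PGJ2 they had the same sign in 33 of 58, with a median gap of 1.08, and in 37 of 58, with a gap of 0.40, without GR3KR arrays 1 and 2.

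ZNF700 differed at both probes. Probe ILMN_2068435 read 8.75, 8.72 and 9.29 in wtGR and 5.45, 5.38 and 5.45 in GR3KR cells with dexamethasone, and 8.88, 8.75 and 8.83 against 7.01, 6.63 and 6.12 with 15d-PGJ2. The difference with 15d-PGJ2 was -2.23 (adjusted p = 0.000236), called under all 21 alternatives. It was detected on 2 of 3 GR3KR arrays with dexamethasone and on all 3 with 15d-PGJ2. ZNF682 differed between its probes. Beside the probe that was below detection in GR3KR cells, ILMN_2313889 was detected on all 12 arrays and read 12.14, 12.13 and 12.20 against 12.73, 12.70 and 12.04 with 15d-PGJ2 (difference 0.33, adjusted p = 0.292; -0.12 and 0.803 without GR3KR arrays 1 and 2). With dexamethasone the means of ILMN_2313889 were 12.4 in wtGR and 11.6 in GR3KR cells, a difference of -0.8. The remaining ZNF682 probe was detected on no array. The second ZNF69 probe, ILMN_2176882, was detected throughout as well, at 10.79 ± 0.20 in wtGR and 10.40 ± 0.17 in GR3KR cells with 15d-PGJ2 (SD, n = 3). Its means with dexamethasone were 11.2 and 10.43, a difference of -0.76. The second ZNF485 probe read 6.42 ± 0.08 in GR3KR cells with dexamethasone, where the first lay below detection. For ZNF700, ZNF682, ZNF69 and ZNF485 the loss of detection thus holds for 1 probe and not for every probe of the gene. Whether the probes of a gene lie on different transcripts was not tested.

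ZNF557, ZNF84 and ZNF607 also had probes that disagreed most. With dexamethasone the 2 probes of ZNF557 differed between the lines by 0.23 and -1.03, those of ZNF84 by -0.31 and -1.38, and those of ZNF607 by 0.88 and 0.00. With 15d-PGJ2 the values were -0.06 and 0.48 for ZNF557, -2.05 and -0.35 for ZNF84, and -1.46 and 0.27 for ZNF607, of which ZNF84 at probe ILMN_3223798 was called (adjusted p = 0.00634; 0.16 without GR3KR arrays 1 and 2).

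**Figure D4:**
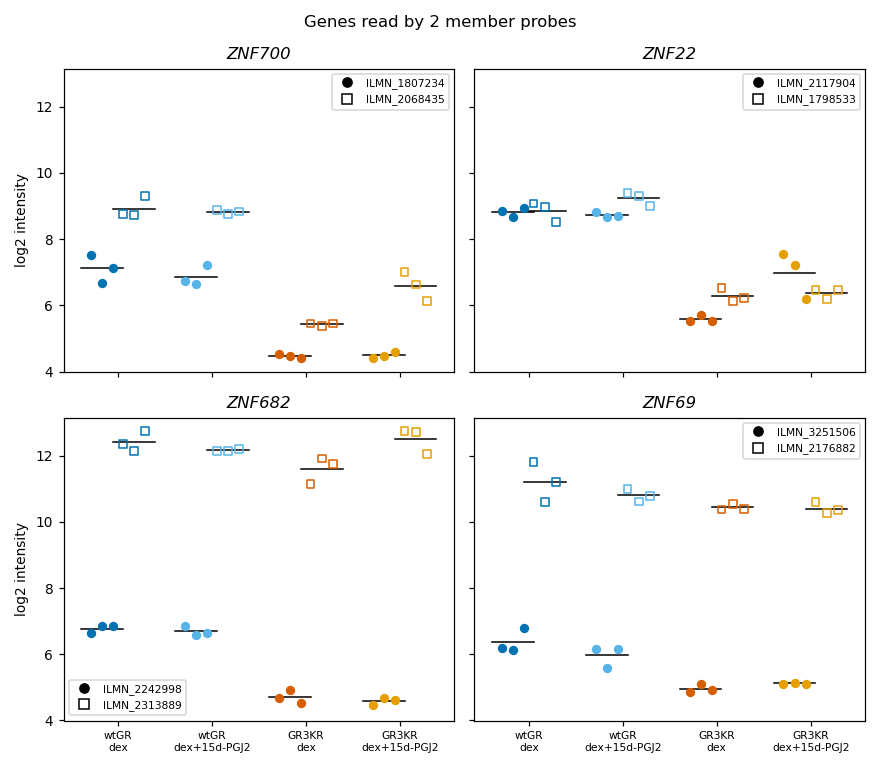
Normalized log2 intensity on each array (symbols) and group mean (lines) for the 2 member probes of ZNF700, ZNF22, ZNF682 and ZNF69. Both probes of ZNF700 and ZNF22 separate the lines, whereas in ZNF682 and ZNF69 the brighter probe stays above 10 on every array.

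The position of the genes was taken from RefSeq (GRCh38.p14) as an order along the chromosome. Chromosome 19 carries 8 of the 9 probes in wtGR only and 45.0% of all ZNF probes here. Of all 288 probes in wtGR only that have a gene, 27 are on chromosome 19, and of the 14599 probes under the rule with a gene 972 are. ZNF69, ZNF700, ZNF763 and ZNF433 follow each other directly among the protein-coding genes. ZNF763 was detected on all 12 arrays, at 7.04 ± 0.48 in wtGR and 7.03 ± 0.21 in GR3KR cells with dexamethasone (SD, n = 3), with a difference of -0.01 between the large ones of its neighbours. ZNF20, 3 places beyond ZNF433, had differences of -1.48 with dexamethasone and -0.64 with 15d-PGJ2 (adjusted p = 0.137; -1.23 and 0.0753 without GR3KR arrays 1 and 2). ZNF93 and ZNF682 are neighbours as well, and ZNF813 lies 4 places beyond ZNF525. Between them ZNF761 had a difference of 0.28 with dexamethasone and -2.04 with 15d-PGJ2 (adjusted p = 0.00725; -2.06 and 0.102 without GR3KR arrays 1 and 2), where no GR3KR array detected it (at least 1.41-fold lower). Neighbouring genes therefore did not all differ alike, and paralogs of such clusters can share signal between probes.

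**Figure D5:**
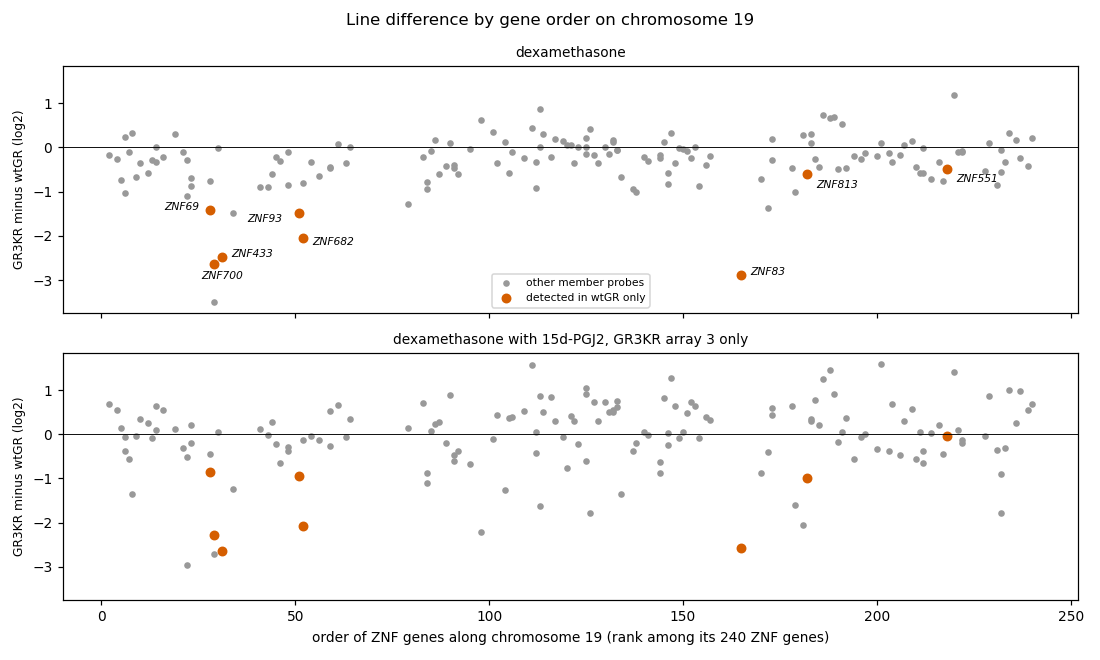
Log2 difference between the lines (GR3KR minus wtGR) of the 161 chromosome 19 probes by gene order, rank 1 to 240 among ZNF genes of the chromosome, with dexamethasone (top) and with 15d-PGJ2 and array 3 as the GR3KR group (bottom). The probes in wtGR only lie at -0.48 to -2.88 in the top panel. Other probes also lie in that range, such as ZNF20 at -1.48. The lowest point is the second ZNF700 probe at -3.49.

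The 6 probes with the highest signal, of ZNF674, ZNF430, ZNF428, ZNF14, ZNF549 and ZNF682 (ILMN_2313889), were detected on every array. ZNF674 read 13.92 ± 0.10 and 14.02 ± 0.04 in wtGR and GR3KR cells with dexamethasone and 14.08 ± 0.07 and 14.16 ± 0.09 with 15d-PGJ2 (SD, n = 3). Of the 6, ZNF428 passed the test with 15d-PGJ2 (difference -0.62, adjusted p = 0.0218; 0.00041 to 0.826 over 22 alternatives). The differences of the others lay between -0.51 and 0.33.

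A chosen list of 30 genes, taken as candidate partners of KRAB zinc finger proteins, was counted, of which 26 passed the filter. Whether each acts with such proteins was not tested. With 15d-PGJ2 4 were called higher (15.4%) and 10 lower (38.5%) in GR3KR cells, beside 29.6% and 21.1% of all probes, with a median of -0.62 beside 0.12. Without GR3KR arrays 1 and 2 the numbers were 1 (3.85%) and 2 (7.69%), beside 7.72% and 5.1%, with a median of -0.32 beside 0.09. HDAC1, a histone deacetylase, was higher by 1.15 (adjusted p = 0.00118) and TRIM33, a relative of TRIM28, lower, at -0.96 (adjusted p = 0.00137), both under all 22 alternatives. HDAC1 read a mean of 11.59 and 12.62 in wtGR and GR3KR cells with dexamethasone and 11.66 and 12.81 with 15d-PGJ2. The maintenance methyltransferase DNMT1 was lower, at -0.53 (adjusted p = 0.0135), but stood at 0.08 with median scaling. TRIM28 itself read 10.82, 11.01 and 11.98 in wtGR and 7.97, 8.15 and 11.45 in GR3KR cells with 15d-PGJ2. Its difference of -2.08 (adjusted p = 0.0448) became 0.18 (adjusted p = 0.827) without arrays 1 and 2, and those of TRIM24 (-3.03), UHRF1 (-2.99), SUMO2 (-2.70), CHD3 (-0.94) and SUV39H2 (0.88) were not called without them. SETDB1 read a mean of 9.40 and 9.64 with 15d-PGJ2, a difference of 0.25 (adjusted p = 0.195; 0.16 and 0.571 without arrays 1 and 2).

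Among the neighbouring families with 15d-PGJ2, 5 of 12 ZFP probes were called higher and 3 lower, 7 of 11 ZSCAN probes higher and 0 lower, 4 of 5 ZKSCAN probes higher and 0 lower, and 14 of 33 ZBTB probes higher and 1 lower, where 29.6% of all probes were higher and 21.1% lower. Without GR3KR arrays 1 and 2 these were 1 and 2, 2 and 0, 1 and 0, and 4 and 1, where 7.72% of all probes were higher and 5.1% lower.

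At the edge of the rule the deciding detection p was 0.00909 for ZNF592, 0.00779 for ZNF761 and 0.00649 for ZNF155 inside it. Outside it, ZNF2, ZNF516 and ZNF667 each stood at 0.0104.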

How the data were processed

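The deposited bead table holds linear intensities that the authors did not normalize, with a detection p-value for each, also deposited, and no background subtracted. A second deposited table holds log2 values; the submitters' processing notes name lumi, and its steps are not given in the sources used here. Gene symbols came from the platform annotation, in which 30107 of 47312 probes have 1 symbol, 8 several and 17197 none. All 358 ZNF probes matched a RefSeq gene with the same symbol.

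Intensities were background corrected with the background inferred from detection p-values (normexp, offset 16), quantile normalized and log2 transformed in limma 3.58.1 (R 4.3.3). Probes detected (p-value under 0.01) on 3 or more of 12 arrays, 20909 in all, were fitted with 4 group means (lmFit and eBayes; 8 residual and 2.66 prior degrees of freedom). Tests were 2-sided, and the threshold was an adjusted p of 0.05 (Benjamini-Hochberg, all 20909 probes). The fit was tested on simulated data. An "at least" fold sets the mean of the brighter group against, per array of the dimmer group, the higher of its own value and the lowest signal detected there. Promoter windows, gene order and chromosomes came from RefSeq (GRCh38.p14), of which 257 of the 295 genes had a window; protein sequences were not used here. Whether the 3 arrays of a group stand for separate cultures is not in the labels; the p-values then measure only the spread between these samples, and the number of arrays limits precision.

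The members and gene lists were chosen with earlier results of these data known. Probes named by rule were those that switched between the lines with dexamethasone (up to 10), the 8 largest called non-overlapping differences with 15d-PGJ2 in each direction, the 6 largest called responses in each direction, the 6 brightest, the 6 genes whose probes disagreed most, the 3 on either side of the threshold, and up to 8 called partners. The partners DNMT1 and SETDB1 were named in addition. Alternatives were other normalizations, no background correction, the lumi values, other filters, 1 probe per gene, array weights, a replicate block and leaving out arrays. A further leukocyte marker is not reported here.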

Additional observations from a re-analysis of the deposited data

Results flagged for a closer look

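The response to 15d-PGJ2 was compared between the lines by the limma test of the difference (GR3KR minus wtGR, adjusted p under 0.05). The response differed in 14 of the ZNF probes named by rule, those at the threshold left aside, listed with their log2 difference. It was higher in GR3KR cells for 10: ZNF775 2.27, ZNF12 2.03, ZNF532 1.86, ZNF540 1.73, ZNF649 1.72, ZNF557 (ILMN_2346137) 1.51, ZNF483 1.34, ZNF700 (ILMN_2068435) 1.26, ZNF682 (ILMN_2313889) 1.13 and ZNF84 (ILMN_3300358) 1.03. It was lower for 4: ZNF598 -4.91, ZNF768 -3.94, ZNF274 -3.57 and ZNF627 -2.75. Their adjusted p lay between 0.02 and 0.0467. Probes mentioned above for other reasons were also called. Among them were ZNF22 (ILMN_2117904) at 1.49, ZNF205 (ILMN_2404033) at -2.89, ZNF24 at -2.25 and ZNF761 at -2.32. Over all ZNF probes 99 were called, 84 higher and 15 lower, beside 23.7% of all probes tested. Without GR3KR 15d-PGJ2 arrays 1 and 2 all 14 kept their sign and 0 were called (adjusted p = 0.115 to 0.303), beside 0.00478% of all probes. The part of array quality in these differences was not tested. The dexamethasone arrays enter this difference and also chose the probes. The 14 were moreover named for a large line difference with 15d-PGJ2, a large response in GR3KR cells or probes that disagreed with dexamethasone. Those are parts of the same difference, so the 14 and their adjusted p are a description. No group was tested for a single outlying array, since each holds 3.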

How the results depend on the processing

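For the lines with 15d-PGJ2, 176 ZNF probes were called, 124 to 235 with 1 array left out in turn, and 48 without GR3KR 15d-PGJ2 arrays 1 and 2. For the lines with dexamethasone, 27 became 154 with array weights, 16 with the replicate block, 65 without that pair and 9 to 56 with 1 array left out. For 15d-PGJ2 in wtGR, 0 became 1 each with cyclic loess, no background correction, the lumi values, no filter, detection on all 12 arrays and 1 probe per gene, 97 with array weights, 2 without the pair and 0 to 2 with 1 array left out. In GR3KR, 185 became 89 with median scaling, 0 without the pair and 83 to 253 with 1 array left out, 83 without GR3KR dexamethasone array 1, 113 without array 3 of that group, and 101 and 84 with array 1 or array 2 of the treated GR3KR group left out. The 9 probes in wtGR only became 12 and 14 at detection p under 0.05 and 0.001 and 11 to 15 with 1 array left out, and the 0 in GR3KR only became 0 to 1. The other 70 of 104 counts stayed within 1.5 times the main count. Same-numbered arrays of different groups correlated, in their deviations from the group means, from -0.748 to 0.749, over 0.1 in 6 of 18 pairs. Array 1 of both wtGR groups and of GR3KR with dexamethasone correlated at 0.682 to 0.749. Differently numbered arrays also correlated strongly, from -0.826 to 0.834. Variation shared between arrays thus did not follow the number alone, and its source was not tested. The replicate block gave 174 for the lines with 15d-PGJ2 and 179 for 15d-PGJ2 in GR3KR. The slide could not be fitted as a block, since the headers used here give none.

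For single probes the line difference with 15d-PGJ2 turned sign in these cases. Without GR3KR arrays 1 and 2 it was -0.15 for ZNF485, -0.26 for ZNF430, -0.12 for ZNF682 (ILMN_2313889), -0.06 for ZNF557 (ILMN_2346137), -0.04 for ZNF598 (ILMN_2075818) and 0.18 for TRIM28. With median scaling it was -0.20 for ZNF485, 0.29 for ZNF14, -0.42 for ZNF607 (ILMN_2233256) and 0.08 for DNMT1. With cyclic loess it was -0.11 for ZNF674, -0.19 for ZNF430 and -0.21 for ZNF607, and with the lumi values -0.00257 for ZNF674 and -0.11 for ZNF430. Array weights gave 0.08 for ZNF557 (ILMN_1719163). Leaving out 1 array gave -0.05 to 0.20 for ZNF430, -0.17 to 0.11 for ZNF557 (ILMN_1719163) and -0.02 to 0.51 for ZNF607 (ILMN_2233256). The cause was not tested. Among these, TRIM28 and DNMT1 were called with all arrays. ZNF483 (ILMN_1732909) also turned sign, to -0.03 with median scaling, where its values in other settings reached 1.04. Of the other values of 59 single results, 1137 kept direction and call, 58 lost the call and 25 gained it. Array precision is limited where signals lie near detection.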
